A study of Mus musculus with 16 samples.

Results

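The genes described are 9 crystallins and Mip (the gene for aquaporin 0), measured by RNA sequencing in mouse retina. They were picked by symbol from a table of 54532 genes, and each of the 10 symbols matched 1 row. The crystallins comprised both alpha crystallins (Cryaa, Cryab), 6 beta crystallins (Cryba1, Cryba2, Cryba4, Crybb1, Crybb2, Crybb3) and Crygs, the S member of the gamma group. Retinas were taken at age day 12 from mice of the strains C57 and BALBc. Hyperoxia was 75% oxygen from day 7 to day 12, the interval in which retinal vessels are lost in the model of oxygen-induced retinopathy, and normoxia was room air. All 4 groups (C57 normoxia, C57 hyperoxia, BALBc normoxia, BALBc hyperoxia) had 4 libraries each. The strain is given only by the sample titles, and which of them is the strain that resists retinopathy is not stated in the labels. Since no label ties libraries to separate animals, p-values here measure only how these libraries vary, which may be technical.

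Crystallins are the soluble proteins that fill the fibre cells of the lens and give it its refractive index. Alpha crystallins belong to the small heat shock proteins and act as chaperones, while beta and gamma crystallins share a common fold and are structural. Mip forms water channels and junctions in the membranes of lens fibres. Cryab is also made in many other tissues, including glia and muscle, and retinal expression of crystallins has been described in injury and ageing.

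Expression was given in FPKM (a level scaled by transcript length and by a library size). Whole reads recovered from the FPKM values came to between 16.7 M and 29.7 M reads per library, with a median of 20.5 M (M, mega). The library size behind the FPKM values was not this total, which was 0.884 to 1.15 of it. The median ratio of a library's genes to their means over libraries was 1.013 in all 16. By that measure the values were already level between libraries. As a check of the tissue, Rlbp1, a Müller glia gene, lay between 105 and 149 FPKM in all libraries, and all 12 listed rod genes were tested. Other markers varied more, as the Müller glia gene Glul (148 to 419 FPKM) and the rod gene Gnat1 (476 to 2964 FPKM). The check shows that retina was present and not that its make-up was equal between libraries. A gene was tested where 4 or more libraries reached 1 FPKM, which held for 14953 genes and for 9 of the 10 described, while Mip, at or above 1 FPKM in 3 libraries, was not tested. Of the 10 genes, 5 overlap another annotated gene on the opposite strand (Cryaa, Cryab, Cryba1, Crybb2 and Mip), and whether counting used strand is not given in the sources used here, so reads from such partners cannot be told apart. In bulk tissue, fewer cells of a type and less RNA per cell cannot be told apart. For these genes 2 libraries stood apart. C57 hyperoxia replicate 3 was at the top of all 16 and BALBc hyperoxia replicate 2 at the top of its strain. Values without both are given where they change a direction or a call. The 2 were picked for their high crystallin values after the data were seen, and both are hyperoxia libraries. C57 normoxia replicate 4, with 827 FPKM summed over the 10 genes, was kept.

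Cryaa, the lens-enriched alpha crystallin, lies on chr17:31677807-31681733 (GRCm38, plus strand) and had the highest median level of the 10 genes over all 16 libraries, 38.0 FPKM. In C57 it measured 38.2, 12.8, 67.6 and 191 FPKM in normoxia replicates 1 to 4, and 0.0890, 1.16, 1216 and 107 FPKM in hyperoxia replicates 1 to 4. In BALBc it measured 52.0, 4.78, 5.53 and 46.6 FPKM in normoxia and 2.61, 291, 37.8 and 13.0 FPKM in hyperoxia. Every group held libraries far apart, and the C57 hyperoxia libraries alone held both the lowest and the highest value, resting on 3 reads and 49692 reads. All 4 groups overlapped, with medians of 52.9 and 53.9 FPKM in C57 normoxia and hyperoxia and 26.1 and 25.4 FPKM in BALBc. The means (± SD, n = 4) were 77.5 ± 79.2 and 331 ± 592 FPKM for C57 and 27.2 ± 25.6 and 86.1 ± 137 FPKM for BALBc, so in each group the SD was about as large as the mean or larger.

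Cryab, the small heat shock protein with wide expression, lies on chr9:50751325-50756636 (plus strand) and behaved differently at the low end. In C57 it measured 28.2, 16.7, 31.7 and 80.2 FPKM in normoxia and 15.4, 15.4, 412 and 53.1 FPKM in hyperoxia. In BALBc it measured 28.7, 16.4, 14.0 and 27.97 FPKM in normoxia and 13.7, 91.6, 24.1 and 12.3 FPKM in hyperoxia. It never fell below 12.3 FPKM in any of the 16 libraries, while each of the other 9 genes fell to 1.27 FPKM or less in at least 1. In C57 hyperoxia replicates 1 and 2 it had 400 and 424 reads, against 3 and 45 for Cryaa. The FPKM ratio of Cryab to Cryaa ran from 0.315 in BALBc hyperoxia replicate 2 to 173 in C57 hyperoxia replicate 1. The gene overlaps Hspb2 on the opposite strand, which stood at no more than 1.28 FPKM in any library.

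The acidic beta crystallins (Cryba genes) pair with the basic ones (Crybb genes) in lens oligomers. Cryba1, on chr11:77718615-77725283 (minus strand), measured 14.8, 5.54, 38.6 and 129 FPKM in C57 normoxia and 0.0714, 0.203, 772 and 54.4 FPKM in C57 hyperoxia. Its levels in BALBc were 30.5, 3.04, 2.97 and 25.7 FPKM (normoxia) and 2.29, 189, 19.98 and 8.59 FPKM (hyperoxia). As for Cryaa, C57 hyperoxia replicate 3 was the highest library and replicate 1 the lowest. Cryba2 (chr1:74889934-74893143, minus strand) was lower, at 5.55, 2.59, 11.8 and 42.4 FPKM in C57 normoxia and 0.0477, 0.316, 289 and 19.3 FPKM in C57 hyperoxia. Its BALBc values were 8.40, 1.18, 1.04 and 5.78 FPKM in normoxia and 0.524, 44.3, 7.30 and 1.81 FPKM in hyperoxia. The groups overlapped for both genes.

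Cryba4 and Crybb1 are divergent neighbours on chromosome 5, 3296 bases apart, at chr5:112246493-112252518 (minus strand) and chr5:112255815-112269585 (plus strand). Cryba4 measured 11.7, 4.44, 21.3 and 69.98 FPKM in C57 normoxia and 0.543, 0.450, 421 and 31.3 FPKM in C57 hyperoxia. In BALBc it measured 13.6, 1.51, 1.67 and 10.2 FPKM in normoxia and 0.860, 80.5, 14.3 and 4.28 FPKM in hyperoxia. Crybb1, the basic partner, was the higher of the 2 in every library. It measured 18.2, 6.21, 43.3 and 113 FPKM in C57 normoxia and 0.924, 1.64, 694 and 54.7 FPKM in C57 hyperoxia. In BALBc it measured 26.5, 3.08, 3.55 and 24.1 FPKM in normoxia and 2.24, 175, 19.97 and 9.43 FPKM in hyperoxia. For both genes C57 hyperoxia replicate 3 was highest, the lowest values stood in C57 hyperoxia replicates 1 and 2, and the groups overlapped.

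Crybb2 and Crybb3 form a second pair on chromosome 5, both on the minus strand and 5721 bases apart, at chr5:113058258-113070117 and chr5:113075839-113081584. Crybb2, a major basic beta crystallin of the adult lens, measured 6.71, 2.04, 14.3 and 48.0 FPKM in C57 normoxia and 0.0283, 0.455, 303 and 21.4 FPKM in C57 hyperoxia. Its levels in BALBc were 13.8, 0.990, 0.962 and 13.5 FPKM (normoxia) and 0.382, 70.6, 9.72 and 3.54 FPKM (hyperoxia). Its median over the 16 libraries, 8.21 FPKM, was close to the 6.51 FPKM of Crybb3. Crybb3 measured 15.2, 5.18, 19.4 and 50.6 FPKM in C57 normoxia and 1.27, 1.34, 334 and 27.7 FPKM in C57 hyperoxia. In BALBc it measured 7.20, 1.38, 1.29 and 5.83 FPKM in normoxia and 1.63, 56.0, 7.20 and 3.24 FPKM in hyperoxia. In normoxia 3 of the 4 BALBc libraries were at or below 5.83 FPKM, against 1 of the 4 C57 libraries, and the groups overlapped between 5.18 and 7.20 FPKM.

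The ratio of Crybb3 to Crybb1 was taken within each library. This pair was chosen after the values were seen, and its ratio was not tested. The ratio of FPKM values ran from 0.447 to 0.838 in C57 normoxia and from 0.242 to 0.447 in BALBc normoxia. In hyperoxia it ran from 0.482 to 1.37 in C57 and from 0.320 to 0.725 in BALBc, so the hyperoxia ranges overlapped. The ratio of Crybb2 to Crybb1 ran from 0.328 to 0.425 in C57 normoxia and from 0.271 to 0.560 in BALBc normoxia, which is the wider range and encloses the C57 one.

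The 250 bases before the RefSeq start of each gene (build GRCm38.p6) are shown for both neighbouring pairs, because these genes lie side by side. Being high in the same libraries was shared by the genes described and was not particular to neighbours. Capitals mark TGCTGA, the core of the site bound by Maf factors, which are regulators of lens crystallins, on either strand (TCAGCA on the other), and the TATA box TATAAA. Both motifs are printed 5′ to 3′ on the strand of the gene.
Cryba4, chr5:112252519-112252768, minus strand: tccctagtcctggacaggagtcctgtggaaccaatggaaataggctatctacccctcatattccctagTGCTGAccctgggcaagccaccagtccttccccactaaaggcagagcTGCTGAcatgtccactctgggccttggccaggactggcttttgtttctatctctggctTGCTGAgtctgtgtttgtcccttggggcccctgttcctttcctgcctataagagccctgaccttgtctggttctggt
Crybb1, chr5:112255570-112255819, plus strand: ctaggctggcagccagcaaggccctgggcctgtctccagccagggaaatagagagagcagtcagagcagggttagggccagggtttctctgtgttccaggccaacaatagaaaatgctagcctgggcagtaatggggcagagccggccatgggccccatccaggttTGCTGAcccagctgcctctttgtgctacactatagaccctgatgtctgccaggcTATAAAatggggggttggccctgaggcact
Crybb2, chr5:113070118-113070367, minus strand: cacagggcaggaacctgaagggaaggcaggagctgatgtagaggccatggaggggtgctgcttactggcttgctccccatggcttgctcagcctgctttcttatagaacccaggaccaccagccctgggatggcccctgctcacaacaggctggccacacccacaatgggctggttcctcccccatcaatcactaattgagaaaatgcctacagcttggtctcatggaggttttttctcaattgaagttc
Crybb3, chr5:113081585-113081834, minus strand: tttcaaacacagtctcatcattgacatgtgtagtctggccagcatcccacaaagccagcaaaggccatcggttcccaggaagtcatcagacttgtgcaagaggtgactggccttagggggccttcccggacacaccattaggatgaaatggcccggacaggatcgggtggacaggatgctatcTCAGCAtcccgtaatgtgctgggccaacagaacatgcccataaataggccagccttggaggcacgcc

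The Cryba4 window held 3 copies of TGCTGA, beginning 182, 135 and 77 bases before the start. Crybb1 held 1 copy, 84 bases before the start, and a TATA box 30 bases before it. Crybb3 held 1 copy on the other strand, 67 bases before the start, and the Crybb2 window held neither motif. Of the 10 genes, 9 matched the RefSeq table, and 8 of these had TGCTGA in the window on either strand: Cryaa, Cryba1, Cryba2, Cryba4, Crybb1, Crybb3, Crygs and Mip. The same letters stood in 5282 of all 32851 windows of that length, which is 16.1%. They stood in 3 of 7 gamma crystallins outside the 10 genes and in 5 of 12 listed lens genes that are not crystallins. TATAAA stood in 3 of the 9 windows (Cryba1, Crybb1 and Crygs) and in 12.4% of all windows. The inverted pair GAANNTTC, from the heat shock element, stood in 0 of the 9 and in 6.69% of all windows. These matches describe letters in the windows, and binding was not measured.

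Crygs, on chr16:22805203-22811577 (minus strand), is the gamma-group crystallin made late and in the outer lens. It measured 9.24, 3.89, 31.8 and 95.8 FPKM in C57 normoxia and 0, 0.185, 582 and 37.3 FPKM in C57 hyperoxia. Its levels in BALBc were 26.6, 3.98, 1.04 and 21.8 FPKM (normoxia) and 0.934, 139.9, 15.6 and 6.23 FPKM (hyperoxia). C57 hyperoxia replicate 1 had 0 reads of it and replicate 3 had 10024 reads. The groups overlapped.

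Mip, on chr10:128225838-128231812 (plus strand), had the lowest median of the 10 genes, 0.310 FPKM. It measured 0.281, 0.0993, 0.933 and 6.85 FPKM in C57 normoxia and 0.0265, 0.0754, 29.1 and 0.942 FPKM in C57 hyperoxia. In BALBc it measured 0.512, 0.0211, 0 and 0.340 FPKM in normoxia and 0.112, 2.18, 0.350 and 0.134 FPKM in hyperoxia. C57 hyperoxia replicate 3 had 1229 reads of it, and 10 of the 16 libraries had fewer than 20. The libraries above 1 FPKM were C57 hyperoxia replicate 3, C57 normoxia replicate 4 and BALBc hyperoxia replicate 2, which were also the top 3 for Cryaa, Cryba1 and Crybb1.

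**Figure D1:**
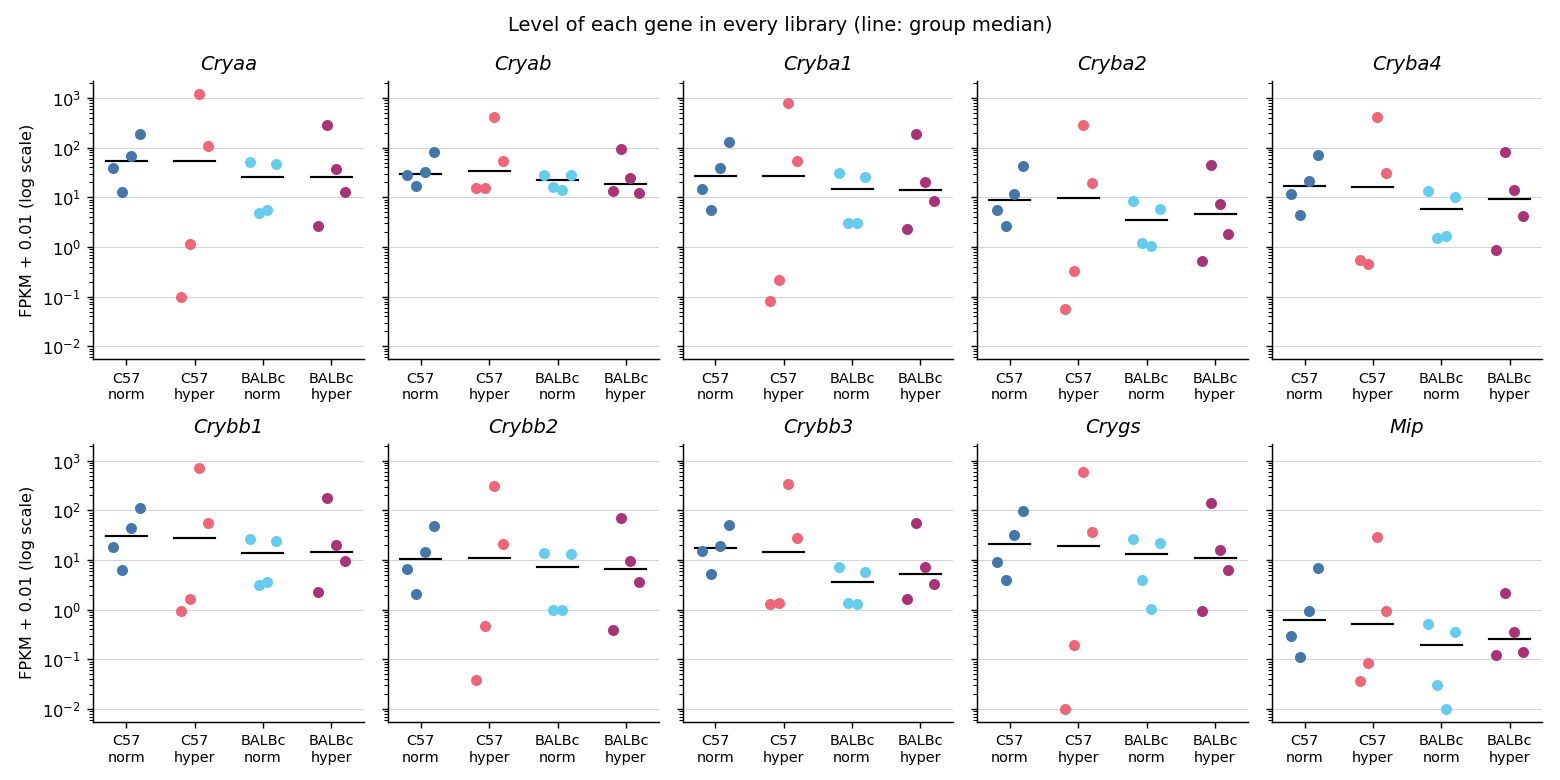
Level of each of the 10 genes in every library, as FPKM + 0.01 on a log axis, with a point for each library and a line at the group median (n = 4). Within the C57 hyperoxia group Cryaa spans 0.0890 to 1216 FPKM, and Cryab alone stays at or above 12.3 FPKM in all 16 libraries.

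The 10 genes together made up a very small and very uneven share of the retinal RNA. Their summed level was 148, 59.4, 281 and 827 FPKM in C57 normoxia and 18.4, 21.3, 5052 and 407 FPKM in C57 hyperoxia. In BALBc it was 208, 36.3, 32.1 and 182 FPKM in normoxia and 25.3, 1140.1, 156 and 62.6 FPKM in hyperoxia. As a share of all recovered reads this was between 0.00278% in C57 hyperoxia replicate 1 and 0.788% in C57 hyperoxia replicate 3, with a median of 0.0238%. The group medians of the sum were 214 FPKM in both C57 groups and 109 FPKM in both BALBc groups. The ranges of the sum overlapped between all 4 groups.

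Cryab set the floor of the sum. It took 83.7% and 72.6% of the summed FPKM in C57 hyperoxia replicates 1 and 2, and between 43.7% and 54.1% in BALBc normoxia replicates 2 and 3 and BALBc hyperoxia replicate 1. In the 2 libraries with the largest sums it took 8.16% (C57 hyperoxia replicate 3) and 8.04% (BALBc hyperoxia replicate 2). Cryaa made up 24.1% of it in C57 hyperoxia replicate 3, 25.5% in BALBc hyperoxia replicate 2 and 23.1% in C57 normoxia replicate 4.

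**Figure D2:**
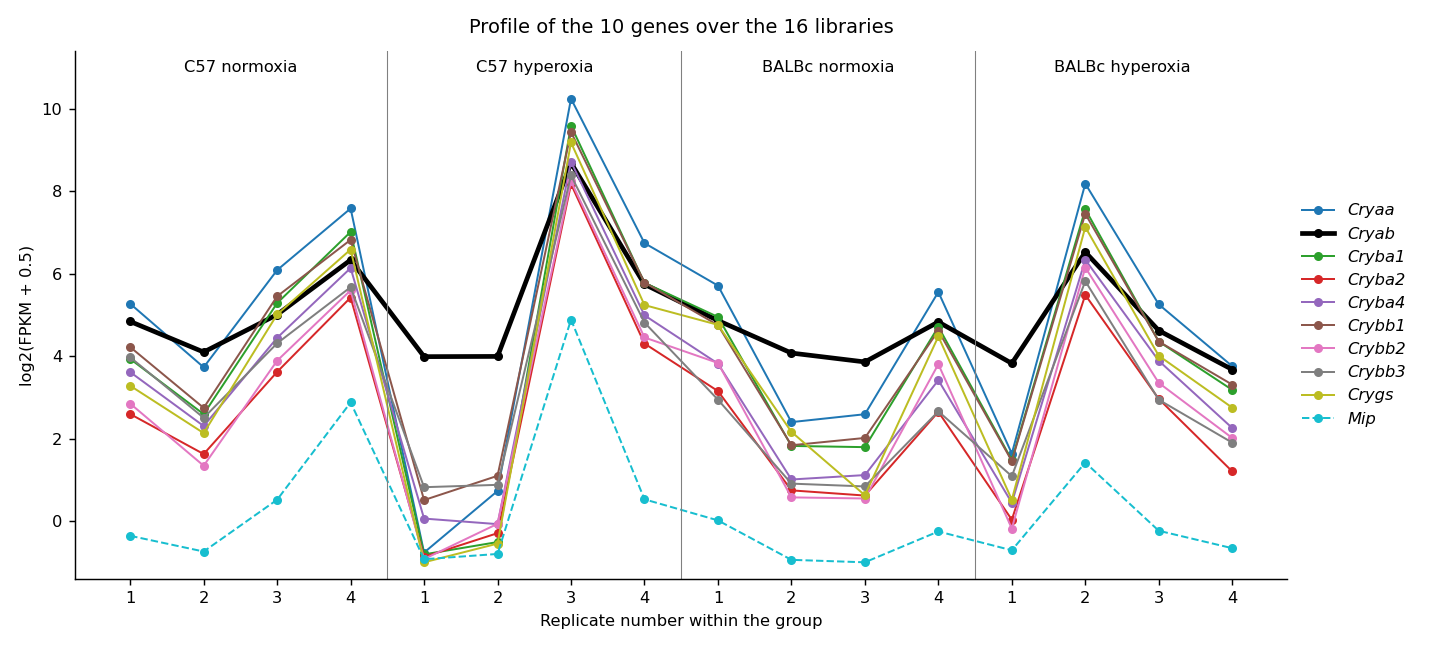
Log2(FPKM + 0.5) of the 10 genes in each of the 16 libraries, ordered by group and replicate number, with 1 line for each gene (lines only help to follow a gene, since libraries have no order). The lines run nearly parallel, except that Cryab (black) levels off near 4 on the log2 scale where the others fall, and Mip (dashed) lies below the others except in C57 hyperoxia replicate 1, where Crygs is at 0.

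Over the 16 libraries, the tested crystallins other than Cryab rose and fell together. For their 28 pairs, Pearson's r of log2(FPKM + 0.5) lay between 0.936 and 0.997 and Spearman's rho between 0.953 and 0.997. After the group means were removed, r lay between 0.984 and 0.998. The 8 pairs with Cryab had r between 0.869 and 0.954, and between 0.940 and 0.981 without the group means. All genes of a library share its RNA and depth, and these values are a description without a test.

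The spread between libraries of 1 group was among the widest of all tested genes. The within-group SD of log2(FPKM + 0.5) was 3.16 for Cryaa, 3.13 for Crygs, 3.12 for Cryba1, 2.82 for Crybb2, 2.72 for Crybb1, 2.70 for Cryba4, 2.65 for Cryba2, 2.26 for Crybb3 and 1.39 for Cryab. The median of the 14953 tested genes was 0.214. These values ranked 5, 6, 7, 10, 11, 12, 14, 15 and 59 from the top. Above or among them stood 6 other gamma crystallins, Crygd, Crygb, Crygc, Crygf, Cryge and Cryga, and at rank 1 Xist, the RNA of the inactive X chromosome, which separates female from male libraries. The next were Eif2s3y, a Y-linked gene, at rank 16 and Bfsp1, a filament gene of lens fibres, at rank 17. Ddx3y, also Y-linked, was at rank 18 and serves below as a covariate that stands in for sex. The labels give no sex, so the balance of the sexes between groups is not known from them.

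**Figure D3:**
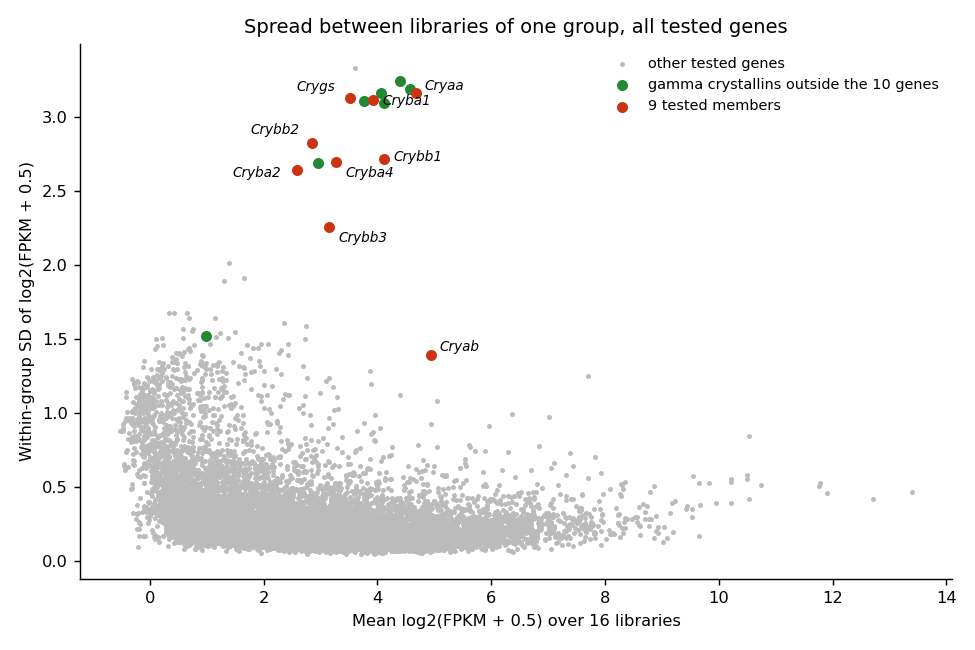
Within-group SD of log2(FPKM + 0.5) against the mean over 16 libraries, with a point for each of the 14953 tested genes. Of the 9 tested genes described (red), 8 lie at 2.26 or above with 6 gamma crystallins (green), against a median of 0.214, and Cryab lies at 1.39.

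Hyperoxia was first compared with normoxia in C57. Of the 9 tested genes, 0 passed (limma, Benjamini-Hochberg adjusted over all tested genes, threshold 0.05), where 0.334% of all tested genes did. None of the 9 had an unadjusted limma p under 0.05 (1987 of the 14953 tested genes did), and 0 passed with voom on recovered reads. Unadjusted exact permutation p-values were between 0.6 and 0.857 (two-sided), and after adjustment over all genes that test cannot call any gene with groups of 4. The log2 differences, hyperoxia minus normoxia, had a median of -0.60 (0.01 for all tested genes), with 8 below 0 and 1 above. They ran from -1.43 for Cryaa (SE 1.98, 95% interval -5.64 to 2.78, limma adjusted p = 0.807) to 0.53 for Cryab (SE 0.87, interval -1.32 to 2.39, limma adjusted p = 0.843). For the 8 genes below 0 the mean FPKM was higher in hyperoxia, as for Cryaa at 331 against 77.5 FPKM, with 1216 FPKM in replicate 3. Groups overlapped for all 9 genes, where 7.63% of all tested genes had groups that did not overlap. Without C57 hyperoxia replicate 3 and BALBc hyperoxia replicate 2, all 9 differences were below 0, with a median of -2.35, and that of Cryaa was -3.43 (limma adjusted p = 0.334). Such a downward shift follows from the choice, since the library left out in C57 hyperoxia was the highest of its group for all 9.

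In BALBc, 0 of the 9 genes passed between hyperoxia and normoxia, where 0.161% of all tested genes did. None had an unadjusted limma p under 0.05 (2118 of the 14953 tested genes did). All 9 log2 differences were above 0, with a median of 0.64 (-0.0048 for all tested genes). They ran from 0.25 for Cryab (SE 0.87, interval -1.60 to 2.11, limma adjusted p = 0.929) to 1.1 for Crybb3 (SE 1.41, interval -1.91 to 4.11, limma adjusted p = 0.773). For Cryaa the difference was 0.64 (SE 1.98, interval -3.57 to 4.86, limma adjusted p = 0.920). Groups overlapped for all 9, against 8.82% of all tested genes without overlap. Leaving out C57 hyperoxia replicate 3 and BALBc hyperoxia replicate 2 put 8 of the 9 below 0, with Cryaa at -0.51, and left Crybb3 at 0.14. The direction of this shift follows from the choice, since the BALBc library left out was the highest of its hyperoxia group for all 9.

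The responses to oxygen of the strains were compared directly, as the BALBc response minus the C57 response. Again 0 of the 9 genes passed, as did 0% of all tested genes, and 0 of the 9 had an unadjusted limma p under 0.05 (1430 of the 14953 tested genes did). The log2 differences of responses had a median of 1.49 and ran from -0.28 for Cryab (SE 1.23, interval -2.91 to 2.35, limma adjusted p = 0.960) to 2.07 for Cryaa (SE 2.80, interval -3.89 to 8.03, limma adjusted p = 0.841). Without C57 hyperoxia replicate 3 and BALBc hyperoxia replicate 2 all 9 were above 0, with a median of 2.08, and the lowest limma adjusted p was 0.650, for Crybb3.

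The strains were compared within each oxygen condition. In normoxia 0 of the 9 genes passed, where 9.08% of all tested genes did. None had an unadjusted limma p under 0.05 (3419 of the 14953 tested genes did). All 9 log2 differences, BALBc minus C57, were below 0, with a median of -1.50 (0.01 for all tested genes). The range was from -0.66 for Cryab (SE 0.87, interval -2.52 to 1.19, limma adjusted p = 0.714) to -2.28 for Crybb3 (SE 1.41, interval -5.28 to 0.73, limma adjusted p = 0.368). Crybb3 averaged 3.92 ± 3.04 FPKM in BALBc and 22.6 ± 19.6 FPKM in C57 (SD, n = 4), and in the exact permutation test over these 8 libraries its p of 0.0857 was the lowest of the 9. That test has 70 arrangements and cannot give less than 0.0286. Groups overlapped for all 9, where 18% of all tested genes had groups that did not.

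In hyperoxia 0 of the 9 genes passed between the strains, where 22.6% of all tested genes did. None had an unadjusted limma p under 0.05 (5377 of the 14953 tested genes did). The log2 differences, BALBc minus C57, had a median of -0.09 (0.01 for all tested genes), with 3 above 0 and 6 below. Without C57 hyperoxia replicate 3 and BALBc hyperoxia replicate 2, 7 were above 0 and 2 below, with a median of 0.57, and Cryba2, Cryba4, Crybb1 and Crybb2 also turned positive with a Ddx3y covariate or a pseudocount of 0.1. In the fit over all libraries they ran from -0.94 for Cryab (SE 0.87, interval -2.80 to 0.92, limma adjusted p = 0.465) to 0.63 for Cryba1 (SE 1.95, interval -3.52 to 4.79, limma adjusted p = 0.848). Groups overlapped for all 9, against 21.4% of all tested genes without overlap. The 4 simple comparisons share their groups, so these signs are not independent of each other.

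**Figure D4:**
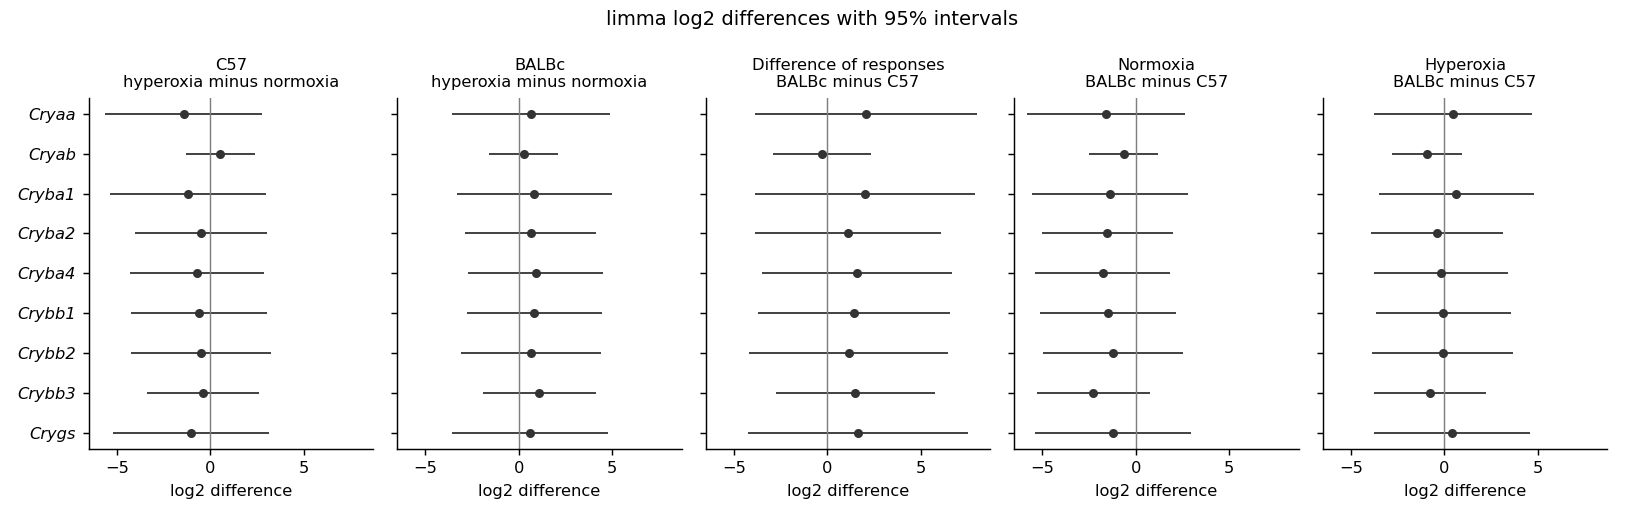
Log2 differences of the 9 tested genes in the 5 comparisons, from the limma fit over 16 libraries, with 95% intervals as bars. Every interval includes 0, and the bars of Cryab are the shortest.

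Other lens genes followed the same libraries. The 7 gamma crystallins not among the 10 genes (Cryga to Crygf, structural proteins of the lens nucleus, and Crygn) summed to between 0.858 FPKM in C57 hyperoxia replicate 1 and 4817 FPKM in replicate 3 of the same group. The ratio of this sum to that of the 10 genes was between 0.445 and 1.43 in 14 libraries, and 0.0467 and 0.125 in C57 hyperoxia replicates 1 and 2, where Cryab made up most of the 10-gene sum. Their mean log2 level followed that of the 9 tested genes with r = 0.984 (rho = 0.979, 16 libraries), and with r = 0.974 without C57 hyperoxia replicates 1 and 3. None of the 7 passed in any of the 5 comparisons with limma, and sequence shared among the gamma genes leaves the split of reads between them uncertain.

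Among 14 lens genes that are not crystallins, 6 were tested and 0 passed in any comparison with limma. Bfsp1 and Bfsp2, which encode the beaded filament proteins of lens fibres, averaged 4.57 ± 4.42 and 4.13 ± 2.94 FPKM in C57 normoxia and 15.1 ± 26.1 and 14.2 ± 23.0 FPKM in C57 hyperoxia (SD, n = 4). In C57 hyperoxia replicate 3 they stood at 54.0 and 48.5 FPKM. Other lens genes there, named after their values were seen, included the fibre membrane gene Lim2 at 24.8 FPKM, the lens galectin-related gene Grifin at 19.2 FPKM, and the lens connexin gene Gja3 at 4.58 FPKM. In C57 hyperoxia replicate 1, Lim2, Grifin and Gja3 were listed at 0. Not every listed gene followed in both high libraries: Lenep was at 0.0281 FPKM in C57 hyperoxia replicate 3 and 0.0315 FPKM in replicate 1. Hsf4 was highest in C57 hyperoxia replicate 3, at 2.98 FPKM, but was at 0.826 FPKM in BALBc hyperoxia replicate 2 and 1.28 FPKM in replicate 3. Summed over the 14 genes, the level ranged from 4.33 to 34.4 FPKM (C57 normoxia), 3.02 to 189.7 FPKM (C57 hyperoxia), 3.67 to 11.5 FPKM (BALBc normoxia) and 4.50 to 60.5 FPKM (BALBc hyperoxia). The mean of the 6 tested genes followed that of the crystallins with r = 0.946 (rho = 0.971, 16 libraries), and with r = 0.938 without C57 hyperoxia replicates 1 and 3. Listed genes below the filter are left out of this mean. Lim2 reached 1 FPKM only in C57 normoxia replicate 4, C57 hyperoxia replicates 3 and 4 and BALBc hyperoxia replicate 2. Crystallin sums were also high in these libraries, so the filter itself favours its likeness to the crystallins. What part lens tissue had in the crystallin levels was not tested.

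The 8 tested genes most like the mean of the 9 tested crystallins over 16 libraries were Crygc (r = 0.981), Crygd (0.979), Crygb (0.978), Cryge (0.976), Crygf (0.973), Bfsp1 (0.968), Cryga (0.955) and Lim2 (0.913). The 5 most like Cryab were Crygn (r = 0.988), Bfsp2 (0.977), Lim2 (0.972), Bfsp1 (0.958) and Crybb3 (0.954). Spearman's rho with Cryab was 0.947 for Crygn, 0.853 for Bfsp2 and 0.862 for Lim2. Lim2 passed the filter only through libraries with high crystallin sums, which favours its place in both rankings.

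Genes that mark the cells of the retina had lower correlations with the crystallins. The mean log2 level of 12 rod genes had r = 0.305 with the crystallin mean (0.470 without C57 hyperoxia replicates 1 and 3), that of 10 Müller glia genes r = -0.370 (-0.401) and that of 8 tested pigment epithelium genes r = 0.179 (0.327). The summed level of the rod genes ranged over 6155 to 18446 FPKM (C57 normoxia), 9831 to 11457 FPKM (C57 hyperoxia), 13920 to 16271 FPKM (BALBc normoxia) and 8188 to 17993 FPKM (BALBc hyperoxia). Corneal epithelium genes (5 listed, 1 tested) summed to between 0.609 and 19.2 FPKM over all libraries, highest in BALBc hyperoxia replicate 3, and fibroblast genes (6 listed, 2 tested) to between 1.65 and 6.54 FPKM. Erythroid genes summed to between 20.6 and 264 FPKM and had r = -0.0211 with the crystallin mean, and reactive glia genes had r = 0.0170. With limma, 1 of 12 rod genes (Nr2e3, a rod transcription factor, log2 0.52, adjusted p = 0.0181) and 5 of 8 pigment epithelium genes were higher in BALBc than in C57 hyperoxia, and 3 of 10 Müller glia genes (Dkk3, Vim and Glul), 1 of 2 fibroblast genes (Pdgfra) and 1 of 5 reactive glia genes (Lcn2) were lower, with 1 reactive glia gene (Serpina3n) higher, where 22.6% of all tested genes passed in either direction. Without C57 hyperoxia replicate 3 and BALBc hyperoxia replicate 2 the calls of all 5 pigment epithelium genes were lost (limma adjusted p = 0.268 for Rpe65, 0.211 for Dct, 0.1298 for Tyrp1, 0.107 for Rgr and 0.0890 for Rdh5), as were those of Nr2e3 (0.0932) and Serpina3n (0.0546). Of 30 other settings, Rpe65 passed under 11, Dct under 14, Rgr and Tyrp1 under 23, Nr2e3 under 25 and Rdh5 under 28. In normoxia, Clu, Serpina3n and 2 of 5 erythroid genes (Hba-a2 and Hbb-bt) were higher in BALBc and Vim was lower, where 9.08% of all tested genes passed. The call of Hba-a2 was lost without both libraries (limma adjusted p = 0.0501). Of 30 other settings, Vim passed under 24, Clu under 21, Hbb-bt under 19 and Hba-a2 under 16, and Serpina3n passed under 16 of 29. Between oxygen conditions Lcn2 alone passed, in C57, where 0.334% of all tested genes did, and it passed under 9 of 30 other settings. The part of these cell types in the crystallin levels was not tested.

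**Figure D5:**
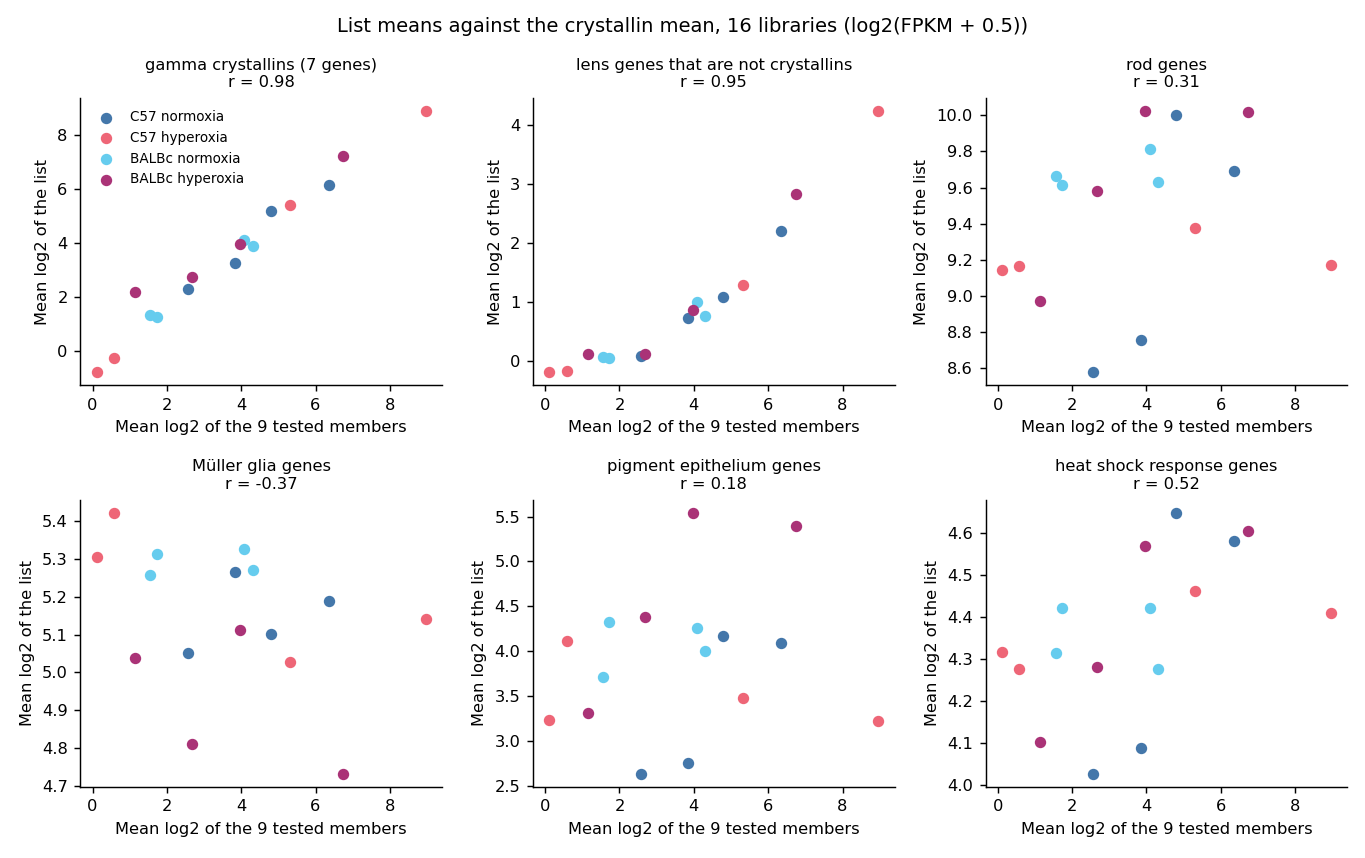
Mean log2(FPKM + 0.5) of 6 gene lists against the mean of the 9 tested crystallins, with a point for each of 16 libraries coloured by group and Pearson's r above each panel. The gamma crystallins and lens genes lie along a rising line (r = 0.98 and 0.95), and the rod, Müller glia, pigment epithelium and heat shock genes scatter (r between -0.37 and 0.52).

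Chaperones other than the alpha crystallins were looked at because Cryaa and Cryab belong to the small heat shock proteins. Of the 7 other small heat shock proteins, 3 were tested (Hspb1, Hspb6, Hspb8) and 0 passed in any comparison with limma. In C57, Hspb1 averaged 7.48 ± 2.28 FPKM under normoxia and 11.9 ± 12.7 FPKM under hyperoxia (SD, n = 4). In BALBc its averages were 6.83 ± 1.15 FPKM under normoxia and 8.18 ± 6.21 FPKM under hyperoxia. Its highest values, 30.8 and 17.3 FPKM, stood in C57 hyperoxia replicate 3 and BALBc hyperoxia replicate 2. The mean of the 3 had r = 0.755 with the crystallin mean, and 0.665 without C57 hyperoxia replicates 1 and 3. Hspb6 lay between 16.6 and 46.2 FPKM over all libraries.

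The 10 heat shock response genes, which encode inducible and constitutive chaperones and their regulators, showed 0 calls between oxygen conditions in either strain with limma. Between strains, 1 was lower in BALBc in normoxia and 1 higher in BALBc in hyperoxia. Of all tested genes, 9.08% passed between strains in normoxia and 22.6% in hyperoxia, so 1 of 10 was near or below that share. Hspa8, the constitutive Hsp70, was the lower one, at 153 ± 12.9 FPKM in BALBc and 274 ± 37.7 FPKM in C57 (log2 -0.83, SE 0.16, limma adjusted p = 0.00256), and it passed under 29 of 30 other settings. Hsph1, an Hsp110 chaperone, was the higher one, at 11.5 ± 1.25 FPKM in BALBc and 7.83 ± 1.22 FPKM in C57 hyperoxia (log2 0.53, SE 0.13, limma adjusted p = 0.00956). The list's mean had r = 0.523 with the crystallin mean (rho = 0.606), and r = 0.632 without C57 hyperoxia replicates 1 and 3.

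Of 11 listed transcription factors tied to the regulation of lens crystallin genes, 8 were tested. The list's mean had r = 0.181 with the crystallin mean, and -0.106 without C57 hyperoxia replicates 1 and 3. In hyperoxia 3 were lower in BALBc than in C57 with limma: Pax6, a master regulator of the eye, at 14.1 ± 2.97 against 21.4 ± 2.02 FPKM, Sox2 at 7.86 ± 1.39 against 11.7 ± 0.432 FPKM, and Maf, a factor of the family whose core motif was searched, at 2.16 ± 0.654 against 3.38 ± 0.958 FPKM. Their limma adjusted p-values were 0.0102, 0.00776 and 0.0415. In this comparison 22.6% of all tested genes passed in either direction. Maf passed under 16 of 30 other settings, Pax6 under 28 and Sox2 under 29. Without C57 hyperoxia replicate 3 and BALBc hyperoxia replicate 2 the calls of Maf and Pax6 were lost (limma adjusted p = 0.116 and 0.0663). These factors are also made by retinal cells. In the other 4 comparisons 0 of the 8 passed.

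Among genes that carry the crystallin name without being structural lens proteins in the mouse, some differed between the strains. Of all tested genes, 9.08% passed between the strains in normoxia and 22.6% in hyperoxia. Groups did not overlap for 18% and 21.4% of all tested genes. Of 8 such genes, 6 were tested, and 0 passed for hyperoxia against normoxia in either strain with limma. Crym, a thyroid hormone binding protein and ketimine reductase, measured 69.6, 62.0, 34.7 and 37.4 FPKM in C57 normoxia and 16.8, 16.3, 15.4 and 14.2 FPKM in BALBc normoxia. In hyperoxia it measured 37.9, 36.6, 57.2 and 52.6 FPKM in C57 and 29.5, 10.1, 11.9 and 20.4 FPKM in BALBc. The strains did not overlap in either condition, and the log2 difference, BALBc minus C57, was -1.61 in normoxia (SE 0.29, limma adjusted p = 0.00202) and -1.43 in hyperoxia (SE 0.29, limma adjusted p = 0.00322). Cryz, a quinone reductase, was higher in BALBc, at 4.94 ± 0.496 against 3.42 ± 0.259 FPKM in normoxia (log2 0.47, limma adjusted p = 0.00616, and 0.0686 under TPM scaling) and 5.22 ± 0.570 against 2.89 ± 0.245 FPKM in hyperoxia (log2 0.75, limma adjusted p = 7.82e-05). Cryzl2 was lower in BALBc, at 0.341 ± 0.0899 against 1.59 ± 0.237 FPKM in normoxia and 0.422 ± 0.168 against 1.56 ± 0.539 FPKM in hyperoxia, with limma adjusted p-values of 0.000652 and 0.00157. Cryl1 and Cryzl1 were also higher in BALBc in hyperoxia, under 21 and 19 of 30 other settings, and the call of Cryl1 was lost without C57 hyperoxia replicate 3 and BALBc hyperoxia replicate 2 (limma adjusted p = 0.0615). The mean of the 6 had r = 0.327 with the crystallin mean and 0.167 without C57 hyperoxia replicates 1 and 3.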

How the data were processed

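Per the labels' protocols, TRIzol was used to extract total RNA and NEBNext Ultra II to build the libraries. HISAT2 2.0.5, featureCounts 1.5.0-p3 and GRCm38/mm10 are named in the submitters' processing notes, and the strand setting is not given in the sources used here. The authors deposited FPKM values for 54532 genes, of which 54495 matched GENCODE M21. Groups were taken from the sample titles. The genes, lists and tests were chosen with earlier results of these data known.

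Genes that reached 1 FPKM in 4 or more of the 16 libraries (14953) were tested with limma 3.58.1 on log2(FPKM + 0.5), with a mean-variance trend and 1 model over the 4 groups. Fold changes on this scale understate those of low genes. P-values were adjusted by Benjamini-Hochberg over all tested genes, with a threshold of 0.05. Single genes were also tested with a two-sided exact permutation test of 70 arrangements (smallest p 0.0286), which cannot call a gene after adjustment over all genes and counts as 1 of the other settings. Whole reads were recovered from the FPKM steps (97.1% to 97.5% of values up to 1000 reads came out whole, within 0.01) and used for voom. The fit was tested on simulated counts that gave every gene the same small dispersion. A spread as wide as that of the crystallins was not simulated, so that test does not cover them. Besides the 10 genes, each list's genes past the threshold were named (up to 4 a comparison), or its 2 most abundant, with the genes most like the crystallin mean (8) and Cryab (5). Alternatives were other pseudocounts, filters, scalings and models, a Ddx3y covariate, a replicate block and leaving out libraries. The Ddx3y covariate stands in for sex, which the labels do not give. Median-ratio scaling had a factor of 1.013 in all 16 libraries. That setting in effect repeats the main fit and counts as 1 of the other settings. Promoter windows came from RefSeq, build GRCm38.p6. Some genes are not reported here.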

Additional observations from a re-analysis of the deposited data

Results flagged for a closer look

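In the 40 sets of 4 libraries (10 genes in 4 groups), the highest library was set against the others by its gap to the nearest one, as a share of the group's range, and compared with Dixon's critical value. C57 hyperoxia replicate 3 exceeded it for all 10 genes, with gaps of 0.905 to 0.969. Its FPKM values were 1216 for Cryaa, 412 for Cryab, 772 for Cryba1, 289 for Cryba2, 421 for Cryba4, 694 for Crybb1, 303 for Crybb2, 334 for Crybb3, 582 for Crygs, 29.1 for Mip, 5052 for the sum of the 10 genes. BALBc hyperoxia replicate 2 exceeded it for all 10 genes, with gaps of 0.831 to 0.905. Its FPKM values were 291 for Cryaa, 91.6 for Cryab, 189 for Cryba1, 44.3 for Cryba2, 80.5 for Cryba4, 175 for Crybb1, 70.6 for Crybb2, 56.0 for Crybb3, 139.9 for Crygs, 2.18 for Mip, 1140.1 for the sum of the 10 genes. C57 normoxia replicate 4 exceeded it for Mip, at 6.85 FPKM, with a gap of 0.877. Chance flags about 1 in 20 groups only where values are normally spread, which these FPKM values are not, so the flags describe and do not test. Genes measured in 1 library are also not independent of each other.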

How the results depend on the processing

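None of the 9 tested genes passed in any comparison under any alternative (0 of 1332 values, which include the exact permutation test, unable to pass at this size), and the lowest limma adjusted p was 0.0745, for Crybb3 between strains in normoxia. The 1332 values also include the median-ratio scaling, which in effect repeats the main fit. Of 45 log2 differences, 29 changed sign somewhere. With Ddx3y as a covariate, the reversed values were Cryab -0.41 for hyperoxia against normoxia in C57, and Cryab 0.46 for the difference of the oxygen responses, and Cryba2 0.12, Cryba4 0.30, Crybb1 0.51, Crybb2 0.47 for BALBc against C57 in hyperoxia. Without C57 hyperoxia replicate 3 and BALBc hyperoxia replicate 2, a choice made after seeing the data, the reversed values were Cryab -0.50 for hyperoxia against normoxia in C57, and Cryaa -0.51, Cryab -0.37, Cryba1 -0.31, Cryba2 -0.39, Cryba4 -0.14, Crybb1 -0.27, Crybb2 -0.46, Crygs -0.58 for hyperoxia against normoxia in BALBc, and Cryab 0.13 for the difference of the oxygen responses, and Cryba2 0.35, Cryba4 0.54, Crybb1 0.58, Crybb2 0.57 for BALBc against C57 in hyperoxia. With a pseudocount of 0.1, the reversed values were Cryba2 0.0454, Cryba4 0.0162, Crybb1 0.053, Crybb2 0.35 for BALBc against C57 in hyperoxia. With voom on recovered reads, the reversed values were Cryba2 0.0474, Crybb2 0.46 for BALBc against C57 in hyperoxia. Leaving out 1 library at a time gave these ranges for the genes whose sign changed. For hyperoxia against normoxia in C57 they were Cryaa -3.43 to 0.24, Cryab -0.50 to 1.07, Cryba1 -3.22 to 0.25, Cryba2 -2.27 to 0.75, Cryba4 -2.47 to 0.46, Crybb1 -2.35 to 0.63, Crybb2 -2.26 to 0.79, Crybb3 -1.94 to 0.58, Crygs -3.02 to 0.37. For hyperoxia against normoxia in BALBc they were Cryaa -0.51 to 1.67, Cryab -0.37 to 0.58, Cryba1 -0.31 to 1.71, Cryba2 -0.39 to 1.43, Cryba4 -0.14 to 1.82, Crybb1 -0.27 to 1.73, Crybb2 -0.46 to 1.65, Crygs -0.58 to 1.62. For the difference of the oxygen responses they were Cryab -0.90 to 0.75, Cryba2 -0.12 to 2.90, Crybb2 -0.15 to 2.91. For BALBc against C57 in hyperoxia they were Cryaa -1.20 to 2.47, Cryab -1.56 to 0.0864, Cryba1 -0.81 to 2.66, Cryba2 -1.64 to 1.37, Cryba4 -1.36 to 1.57, Crybb1 -1.30 to 1.68, Crybb2 -1.38 to 1.68, Crybb3 -1.75 to 0.77, Crygs -1.02 to 2.37. The others kept 1 sign: all 9 strain differences in normoxia (between -2.82 and -0.24), the other 6 differences of responses (0.21 to 4.08, with Cryaa at 0.41 to 4.08) and Crybb3 for oxygen in BALBc (0.14 to 1.72). The cause of these changes was not tested. Same-numbered replicates did not deviate together (r between -0.501 and 0.401, 6 of 24 pairs above 0.1, 5 of 16 libraries closest to their own number), and with a replicate block 0 of the 9 genes passed, while calls over all genes went from 50 to 1 in C57 and from 24 to 22 in BALBc. Calls over all genes otherwise lay between 0 and 65 in C57 and between 0 and 138 in BALBc, and with 1 library left out between 0 and 85 and between 1 and 284. Between strains they lay between 0 and 1441 in normoxia and between 0 and 3388 in hyperoxia, the 0 coming from that permutation test. TPM scaling moved the median log2 difference of all genes by -0.14 for oxygen in BALBc and by -0.15 between strains in hyperoxia, and by less than 0.1 in the other comparisons. Levels near 0, as for Mip, rest on few reads.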
